A study of Mus musculus with 22 samples.

Results

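The data compared here were 4 RNA-seq libraries of mouse primordial germ cells (PGCs), from which sperm and eggs descend, taken at embryonic stage E14.5 from embryos labelled wild type for Tet1. There were 2 male (XY) libraries and 2 female (XX) libraries, chosen by the labels for stage, sex and genotype, among 20 libraries of the Tet1 cross and 22 in the whole series. Both sexes were labelled Tet1-WT and came from crosses of Tet1-het GOF18∆PE-EGFP parents with each other, so both carried the reporter background, a green fluorescent protein transgene under Pou5f1 regulatory sequence that marks germ cells. Each library was a pool of the RNA of sorted PGCs from 2 to 6 embryos, about 1000 to 8000 cells, amplified by SMARTer cDNA synthesis before sequencing. For comparison, 4 Tet1-WT libraries of E12.5 males and females and 4 Tet1-KO libraries of E14.5 males and females from the same cross were used. Results are over autosomal genes, so that the X and Y chromosomes, which set the sexes apart by copy number, do not enter them.

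PGCs of both sexes are alike when they settle in the gonad and then part. In the fetal testis, male germ cells leave the mitotic cycle, rest in G1 and take up a male programme that includes NANOS2, transposon silencing by piRNAs and new DNA methylation. In the fetal ovary, female germ cells respond to BMP and retinoic acid signals through STRA8 and MEIOSIN, enter meiotic prophase and pair and recombine their chromosomes.

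Total counts were 17.25 M and 25.9 M in the male libraries and 21.1 M and 9.62 M in the female libraries, and log2 CPM (counts scaled by TMM to a common library total) correlated at 0.944 between the male and 0.966 between the female replicates, against 0.853 to 0.864 between sexes. The Y-linked genes went with the sex labels. Ddx3y, Eif2s3y and Kdm5d of the Y chromosome stood at 26.4 CPM or more in both male libraries and had no count in either female library. Uty, also on the Y, was at 57.8 and 67.2 CPM in males and 0.0503 and 0.106 CPM in females. Xist, the X inactivation RNA, did not set the sexes apart, at 2.32 and 1.08 CPM in males and 0.302 and 1.06 CPM in females. Germ cell identity held too, with a summed level of 13 germ cell markers of 11370 and 11850 CPM in males and 7952 and 7312 CPM in females. The germ cell marker Dppa3 alone was at 5955 and 6287 CPM in males and 484 and 891 CPM in females. These sums therefore do not rank the sexes by germ cell content. The sum of 15 Sertoli cell markers was 77.1 and 72.0 CPM in males and 13.4 and 6.15 CPM in females, with 1 and 0 of them at 0 in males and 3 and 7 in females. The sum of 6 steroidogenic markers was 20.6 and 26.8 against 5.08 and 2.33 CPM. Sums of granulosa (10.52 and 13.3 against 9.71 and 7.84 CPM), mesenchyme (102 and 79.0 against 110.5 and 119 CPM) and endothelial and blood cell markers (11.2 and 41.4 against 16.6 and 30.0 CPM) were low in both sexes, and Foxl2, Dhh and Insl3 were too low to be tested. The part of traces of testis somatic cells in the genes higher in males was not tested. A pool is 1 replicate, so each value rests on n = 2, and in RNA of bulk samples fewer cells of a type and less RNA per cell cannot be told apart.

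In the quasi-likelihood test of edgeR, adjusted by Benjamini-Hochberg over every gene tested, 4610 of 16058 autosomal genes (28.7%) differed between the sexes at an adjusted p under 0.05 and are referred to as called. Of these, 2342 (14.6%) were higher and 2268 (14.1%) lower in males, and the median log2 ratio over all autosomal genes was 0.0. The ratio was at least 4-fold for 816 of the higher and 800 of the lower genes, and 122 called genes had no count in either female library and 131 none in either male library. The split between directions moved with the method: 2654 higher and 1990 lower with upper-quartile scaling, and 2589 and 2971 by limma's voom (median log2 ratio -0.129). Male libraries were both above both female libraries for 5211 genes (32.5%) and both below for 5610 genes (34.9%). The count was 2638 without female replicate 1, the deeper of the female libraries, and 3289 to 3534 without any of the others. Every log2 ratio below is male over female, fitted by edgeR with its standard error (SE), and every p is adjusted in this way.

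**Figure D1:**
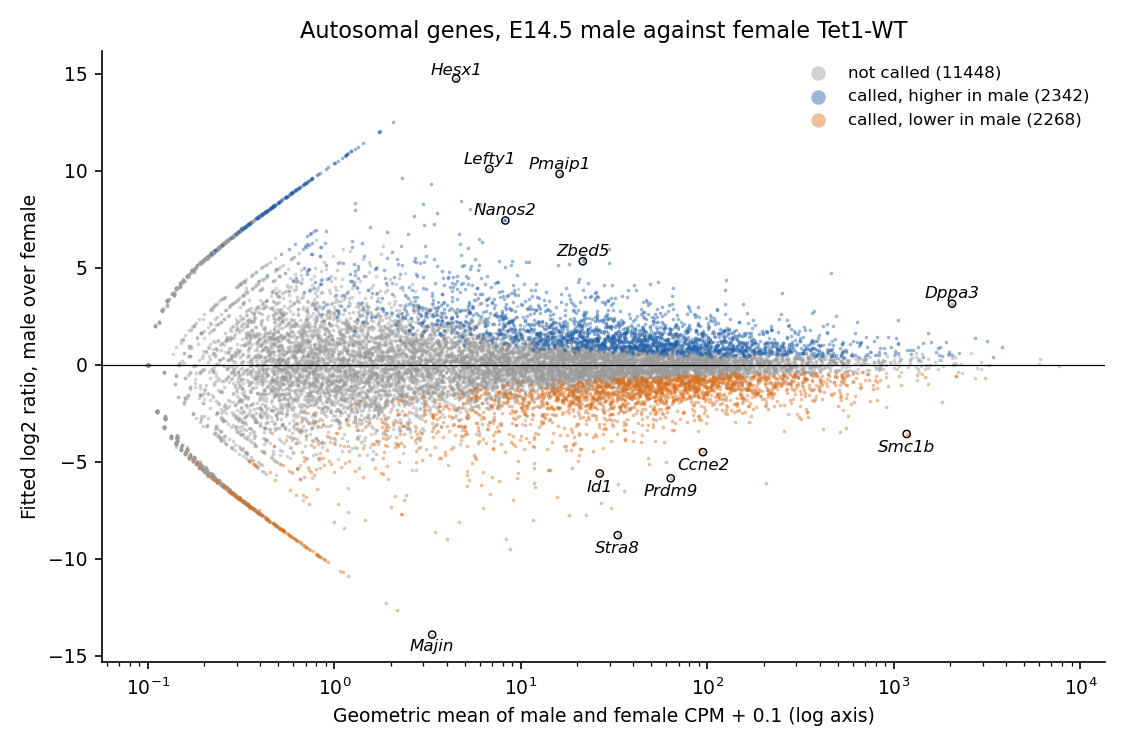
Each point is 1 autosomal gene, with the geometric mean of its male and female CPM (plus 0.1, log axis) on the x axis and its fitted log2 ratio, male over female, on the y axis; blue genes were called higher and orange genes lower in males. The 2342 higher and 2268 lower genes lie on either side of 0, and the curved edges are genes with no count in 1 sex, whose fitted ratio depends on the prior count.

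The Nodal pathway was higher in males through 6 of its genes. In it the ligand Nodal signals with its co-receptor CRIPTO (Tdgf1) and turns on its own inhibitors Lefty1 and Lefty2. Nodal stood at 36.1 and 21.1 CPM in males and at 0 and 2.23 CPM in females (log2 4.91, SE 1.28, adjusted p = 0.00901). Tdgf1 stood at 57.6 and 30.7 CPM in males, against 0.201 and 0 CPM in females (log2 8.29, SE 0.94, adjusted p = 1.17e-05). Lefty1 held 213 and 110.0 CPM in males, against 0.0503 and 0.318 CPM in females (log2 10.10, SE 1.23, adjusted p = 2.29e-05). Ligand, co-receptor and inhibitor were above 20 CPM in both male libraries and below 3 CPM in both female libraries. Lefty2 had 141 and 66.0 CPM in males and 0.503 and 0 CPM in females (log2 8.27, adjusted p = 4.29e-05). Lefty1 and Lefty2 are close copies of one another, and the treatment of reads that fit both was not given in the sources used here, so their separate levels are uncertain. The homeobox gene Otx2 was at 32.1 and 36.4 CPM in males and 0 and 0.106 CPM in females (adjusted p = 0.000527). Of 18 members tested 6 were called, each of them higher, or 33.3% against the 14.6% of all autosomal genes called higher, while the receptors Acvr1b, Acvr2a and Acvr2b and the transducers Smad2, Smad3, Smad4 and Foxh1 were not called. The list median was a log2 ratio of 0.53. EdgeR called no member lower, with 1 lower at an unadjusted p under 0.05, 0 by DESeq2 and 1 by limma's voom; edgeR called 1 lower without male replicate 1 or 2. The call of Nodal was lost without female replicate 1 (adjusted p = 0.0625).

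NANOS2 is an RNA-binding protein that represses meiotic messages in fetal male germ cells by bringing them to the CCR4-NOT deadenylase. Nanos2 was at 69.3 and 125 CPM in males and at 0.352 and 0.848 CPM in females (log2 7.44, SE 1.17, adjusted p = 0.000825), a call that DESeq2 did not make (adjusted p = 0.156). Its relative Nanos3, which keeps PGCs alive, was at 70.5 and 103 CPM in males and 2.97 and 6.36 CPM in females (log2 4.26, SE 0.37, adjusted p = 1.22e-06). Dnd1, a partner of NANOS2 in RNA binding, was at 284 and 442 CPM in males and 32.8 and 51.3 CPM in females (log2 3.12, SE 0.33, adjusted p = 6.77e-06). For each of these genes both male libraries were above both female libraries, as for 32.5% of all autosomal genes. Among the deadenylase subunits the differences were small: Cnot2 had 226 and 265 CPM in males and 128 and 116 CPM in females (log2 1.01, adjusted p = 0.000148). Of 19 members tested, 7 were higher and 5 lower, against 14.6% and 14.1% of all autosomal genes, with a median of 0.06, and the count of lower members was 1, 2 and 1 without male replicate 1, male replicate 2 and female replicate 1.

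Pluripotency genes, which PGCs share with embryonic stem cells, were higher in males, where 18 of 27 members tested were called (66.7% against 14.6% of all autosomal genes), with a median log2 ratio of 1.63. Dppa3, a maternal factor that shields DNA methylation patterns, was among the most abundant messages at 5955 and 6287 CPM in males, against 484 and 891 CPM in females (log2 3.15, SE 0.28, adjusted p = 1.26e-06). Dppa4, a chromatin protein of stem cells, had 712 and 1108 CPM in males and 50.7 and 87.8 CPM in females (log2 3.72, SE 0.28, adjusted p = 4.7e-07). Utf1, a chromatin factor of stem cells, had 455 and 496 CPM in males and 34.5 and 30.5 CPM in females (log2 3.87, SE 0.31, adjusted p = 6.61e-07). None of the 3 had a male library near a female one. The core factor Pou5f1, whose regulatory sequence also drives the sorting reporter, had 202 and 213 CPM in males and 27.7 and 34.0 CPM in females (log2 2.75, adjusted p = 8.67e-06). Whether reads of the transgene entered its count was not tested. Nanog followed at 103 and 78.8 CPM in males and 4.93 and 16.1 CPM in females (log2 3.16, adjusted p = 4.4e-05), and the growth regulator Tcl1 at 162 and 133 against 11.6 and 21 CPM (log2 3.20, adjusted p = 4.7e-07). Sox2 differed least of the core factors, with 26.3 and 25.4 CPM in males and 10.52 and 17.9 CPM in females (log2 0.87, adjusted p = 0.0397), and its call was lost without male replicate 1 (0.116), male replicate 2 (0.0967) or female replicate 1 (0.353). EdgeR called no member lower, with 1 lower at an unadjusted p under 0.05, 1 by DESeq2 and 1 by voom. Under some alternatives edgeR called 1 lower, among them no filter on low counts and the 4 E14.5 Tet1-WT libraries alone. Fewer members were called higher without male replicate 1, male replicate 2 or female replicate 1. The RNA-binding germ cell genes Dazl (2296 and 1997 against 3835 and 3137 CPM, adjusted p = 0.213) and Ddx4 (1065 and 1164 against 1054 and 992 CPM, adjusted p = 0.839) were not called. Of 13 germ cell identity genes 6 were higher and 1, Sycp3, was lower, against 14.6% and 14.1% of all autosomal genes. Their median was 1.24.

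**Figure D2:**
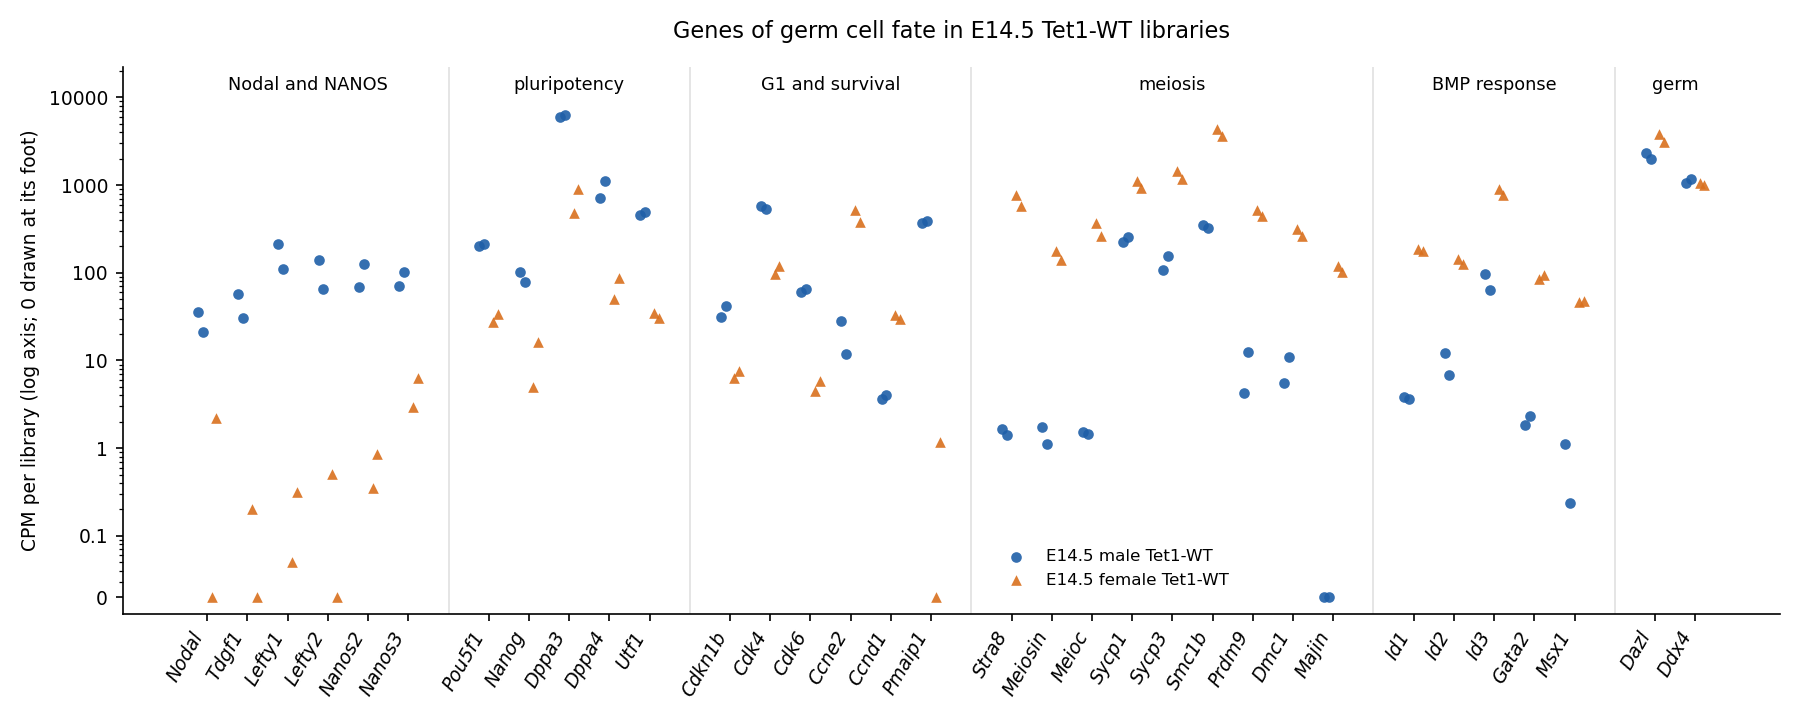
CPM of 33 genes (log axis, 0 drawn at its foot) in each of the 2 male (blue circles) and 2 female (orange triangles) E14.5 Tet1-WT libraries, grouped by role. The male and female points do not overlap for any of the 33 genes, and lie closest together for the general germ cell genes Ddx4 and Dazl. Such separation is common: of all autosomal genes, 32.5% had both male libraries above both female libraries and 34.9% had both below. Ddx4 and Dazl were not called.

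Genes of piRNA production and transposon silencing were called in both directions. Morc1, which represses transposons in male germ cells, was at 124 and 351 CPM in males and at 10.9 and 13.8 CPM in females (log2 4.28, SE 0.46, adjusted p = 6.66e-06). Tdrd5, needed for piRNA processing, was at 103 and 197 CPM in males and 16.5 and 12.6 CPM in females (log2 3.36, SE 0.42, adjusted p = 2.51e-05). Piwil4, the PIWI protein that guides silencing in the nucleus, was at 60.3 and 159 CPM in males and 19.3 and 15.8 CPM in females (log2 2.64, SE 0.61, adjusted p = 0.00443). All 3 were higher in male replicate 2 than in male replicate 1, and the call of Piwil4 was lost without replicate 2 (adjusted p = 0.0862). Spocd1, which links PIWIL4 to DNA methylation, had 14.6 and 44.6 CPM in males and no count in females, at least 126-fold higher with 3 counts per female library (adjusted p = 0.0102, and 0.0673 without female replicate 1). In the other direction, Tex15, a silencing factor that is also needed in meiosis, had 136 and 323 CPM in males and 1582 and 1249 CPM in females (log2 -2.63, adjusted p = 0.000107), and Gpat2, a piRNA factor of the mitochondrial surface, had 207 and 335 against 805 and 761 CPM (log2 -1.53, adjusted p = 0.0021). Of 24 members tested, 7 were higher and 5 lower, against 14.6% and 14.1% of all autosomal genes, and the median was 0.74. The higher count was 3 without male replicate 2 and 4 without female replicate 1, and the lower count 2 without male replicate 1 or female replicate 1 and 3 without female replicate 2.

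Enzymes that write and erase DNA methylation showed 7 higher and 3 lower of 23 members tested, with a median of -0.07. The lower count is near the 14.1% of all autosomal genes called lower, and 14.6% of all were called higher. Dnmt3l, the cofactor of new methylation in germ cells, had 8.26 and 27.0 CPM in males and no count in either female library, at least 75.1-fold higher with 3 counts per female library (adjusted p = 0.0145). That call was lost without male replicate 2 (0.0511), female replicate 1 (0.0905) or female replicate 2 (0.0593). Dnmt3a, the methyltransferase it assists, had 114 and 268 CPM in males and 26.2 and 36.6 CPM in females (log2 2.61, SE 0.40, adjusted p = 0.000154). Tet1, which oxidises methylcytosine, had 218 and 155 CPM in males and 35.2 and 49.2 CPM in females (log2 2.15, SE 0.38, adjusted p = 0.000526). Both enzymes were above both female libraries in both male libraries, as were 32.5% of all autosomal genes. Hells, a remodeller that aids methylation, was lower at 588 and 417 CPM in males and 1303 and 1085 CPM in females (log2 -1.25, adjusted p = 0.000279). The count of higher members was 4 without male replicate 1 and 2 without female replicate 1. Polycomb and H3K9 repressors gave 5 higher and 4 lower of 26, a share of 34.6% near the 28.7% of all autosomal genes, with a median of -0.15. The lower ones included the methyltransferases Ezh2 (49.5 and 27.0 against 106 and 103 CPM, adjusted p = 0.000208) and Setdb1 (203 and 285 against 537 and 471 CPM, adjusted p = 0.00224), and the higher ones E2f6 (14.498 and 13.7 against 1.96 and 2.44 CPM, adjusted p = 0.00156), a repressor of germline genes in somatic cells. The higher count was 3 without female replicate 2, and the lower count 7 without male replicate 1 and 2 without female replicate 1.

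Genes of meiotic entry were lower in males. Stra8, the transcription factor of meiotic initiation, was at 1.66 and 1.40 CPM in males and at 766 and 575 CPM in females (log2 -8.78, SE 0.84, adjusted p = 3.7e-06). Its partner Meiosin, listed under its symbol Gm4969, was at 1.72 and 1.12 CPM in males and 178 and 139 CPM in females (log2 -6.81, SE 0.65, adjusted p = 3.7e-06). Meioc, which sustains prophase once it has begun, was at 1.54 and 1.44 CPM in males and 369 and 263 CPM in females (log2 -7.72, SE 0.97, adjusted p = 2.79e-05). Both male libraries were below 2 CPM and both female libraries above 100 CPM for each of these genes. The BMP-responsive factor Msx1, which has been tied to meiotic entry in mouse, was at 1.13 and 0.24 CPM in males and 46.9 and 48.2 CPM in females (adjusted p = 1.18e-05). Of 12 members tested, 8 were lower in males (66.7% against 14.1% of all autosomal genes), with a median log2 ratio of -3.03. Fewer of them were called lower without male replicate 1 or male replicate 2.

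All 14 members of the synaptonemal complex, which zips paired chromosomes together, and of the meiotic cohesins were called lower in males (12 to 14 with 1 library left out), with a median of -2.61. Of all autosomal genes, 14.1% were called lower. Sycp3, of the chromosome axis, was at 108 and 156 CPM in males and 1457 and 1166 CPM in females (log2 -3.32, SE 0.25, adjusted p = 4.7e-07). Sycp1, of the transverse filaments, was at 225 and 256 CPM in males and 1128 and 935 CPM in females (log2 -2.10, SE 0.35, adjusted p = 0.000375). Smc1b, a meiotic cohesin subunit, was at 354 and 327 CPM in males and 4396 and 3657 CPM in females (log2 -3.56, SE 0.27, adjusted p = 4.74e-07). Unlike Stra8, these structural genes were at 108 CPM or more in males, and the sexes did not overlap. Both male libraries were below both female libraries for 34.9% of all autosomal genes too. Syce1 of the central element had 135 and 116 CPM in males and 791 and 671 CPM in females (log2 -2.54, adjusted p = 5.13e-06), and Hormad2, which monitors unpaired axes, had 54.9 and 58.0 against 296 and 264 CPM (log2 -2.31, adjusted p = 1.61e-06). The cohesin Rec8 had 13 and 13.8 CPM in males and 190.3 and 217 CPM in females (log2 -3.93, SE 1.04, adjusted p = 0.0101), and it was no longer called without male replicate 1 (0.0616) or 2 (0.0609).

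Of 29 recombination genes tested, 23 were lower in males (79.3%), 18 to 22 with 1 library left out, and the median was -2.53. The share called lower among all autosomal genes was 14.1%. Prdm9, which marks the sites of recombination, was at 4.22 and 12.3 CPM in males and 524 and 441 CPM in females (log2 -5.85, SE 0.56, adjusted p = 2.46e-06). The strand exchange enzyme Dmc1 was at 5.47 and 10.8 CPM in males and 314 and 263 CPM in females (log2 -5.13, SE 0.90, adjusted p = 0.000503), and the crossover factor Msh5 at 2.56 and 4.59 against 112 and 112 CPM (log2 -4.95, adjusted p = 9.88e-06). Majin and Terb1 encode proteins that fasten telomeres to the nuclear envelope in prophase. Majin had no count in either male library and 121 and 102 CPM in females, at least 749-fold lower in males with 3 counts per male library (adjusted p = 1.18e-05), and Terb1 had 1.78 and 4.0 against 129 and 107 CPM (log2 -5.33, adjusted p = 3.05e-06). Brca2, which also repairs breaks in mitotic cells, was at 52.2 and 47.7 CPM in males and 255 and 232 CPM in females (log2 -2.29, adjusted p = 7.89e-06). Spo11, which makes the breaks, was not called, at 10.3 and 22.4 CPM in males and 53.9 and 42.7 CPM in females (log2 -1.56, SE 1.13, adjusted p = 0.332), although its libraries did not overlap. EdgeR called no member of the 3 meiotic lists higher in males, with 0 higher at an unadjusted p under 0.05, by DESeq2 or by voom. Fitted to the 4 E14.5 Tet1-WT libraries alone, edgeR called 1 meiotic entry gene and 1 recombination gene higher in males.

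Of 16 oocyte genes tested, 2 were higher, a share near the 14.6% of all autosomal genes, and 5 were lower, against 14.1% of all, with a median of 0.39. Figla, a transcription factor needed to form follicles, was at 0.772 and 1.76 CPM in males and 109 and 97.1 CPM in females (log2 -6.31, SE 1.03, adjusted p = 0.000272). Spdya, which activates CDK2 at telomeres in prophase, was at 0.594 and 0 CPM in males and 214 and 167 CPM in females (log2 -9.50, SE 1.15, adjusted p = 2.12e-05). Ooep, known from the subcortical complex of the egg, was higher in males at 36.2 and 47.4 CPM, against 3.73 and 4.45 CPM in females (log2 3.36, SE 0.40, adjusted p = 1.74e-05). Sohlh2 was nearer to even, at 249 and 137 CPM in males and 394 and 419 CPM in females (adjusted p = 0.0171), and its call was lost without male replicate 2 (0.18), female replicate 1 (0.0596) or female replicate 2 (0.0673). The list held 1 or 2 higher and 2 or 3 lower members when any library was left out.

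**Figure D3:**
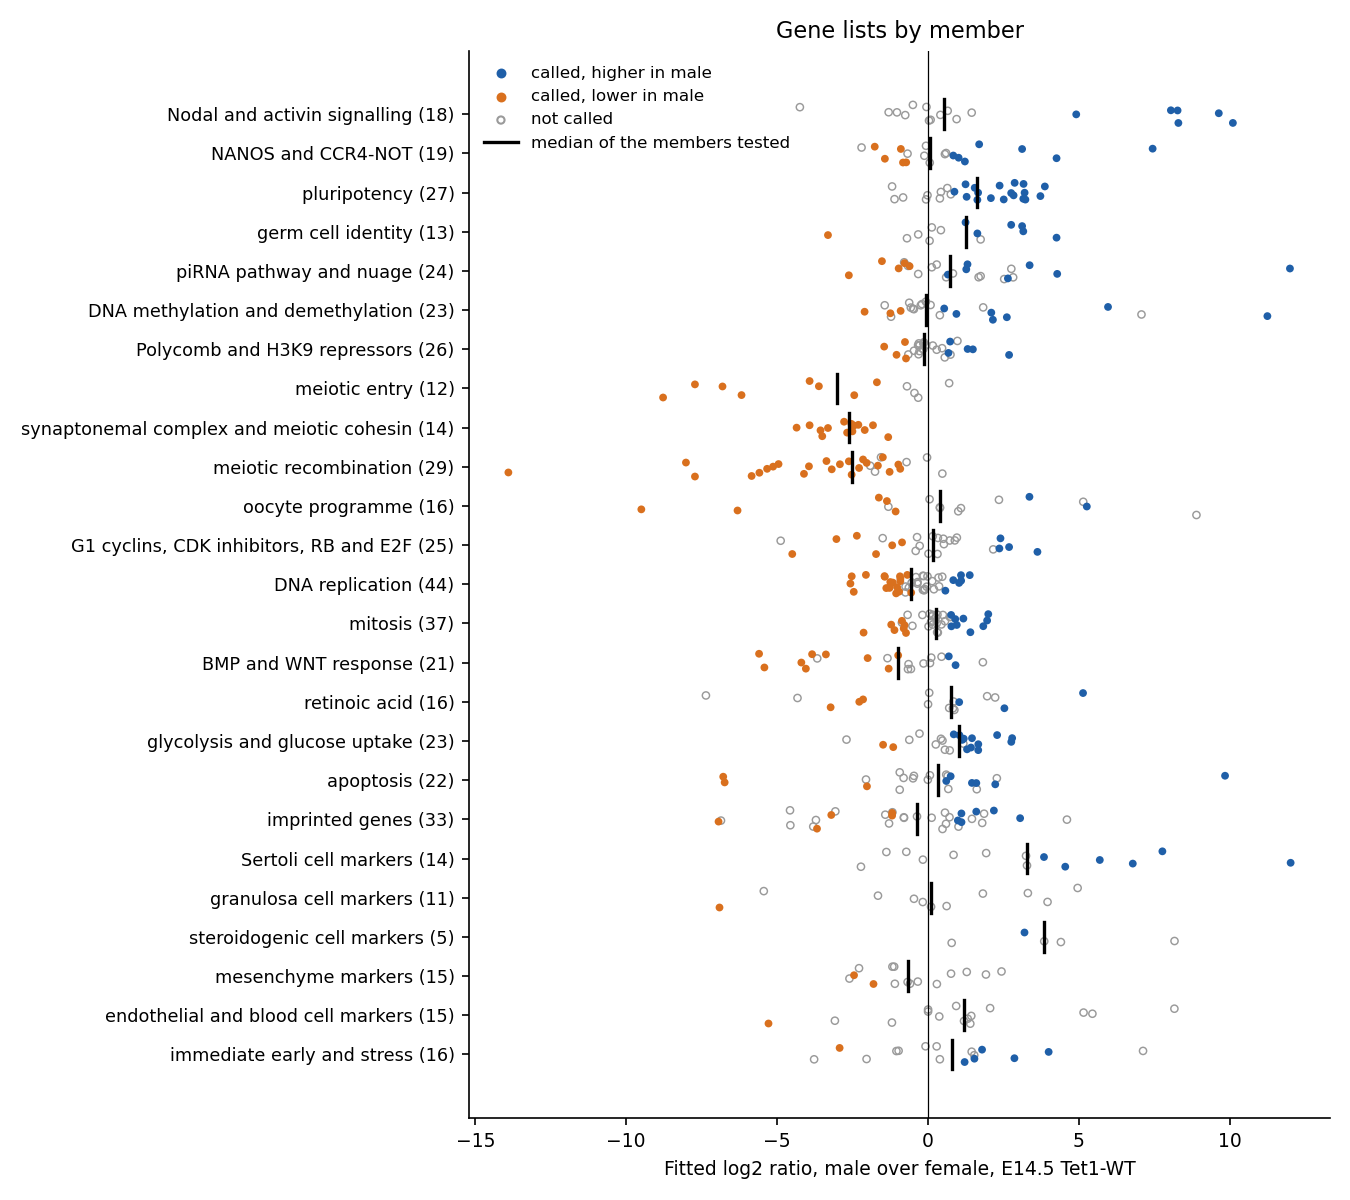
Fitted log2 ratio, male over female, of each tested member (x axis) of 25 gene lists (rows, number tested in brackets). Filled points are called members, open points are the others, and a bar marks the list median. Ratios of genes with no count in 1 sex depend on the prior count. All 14 synaptonemal complex and cohesin members lie left of 0 and the median of the 27 pluripotency members is 1.63.

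Promoters of called genes were searched for 4 short motifs on either strand, from 250 bases before to 50 after the RefSeq start on GRCm38.p6 (protein-coding autosomal genes outside chromosome 18, of which 11376 of 14038 had a promoter in the table). The motif bound by STRA8 and MEIOSIN, CNCCTCAG, was in 6.28% of 1816 promoters of genes higher in males and 15.3% of 1805 promoters of genes lower in males, against 8.69% of 7755 promoters of genes not called and 9.35% of all. The E-box CACGTG was in 12.8% of promoters of the higher and 7.53% of the lower genes (9.75% of all), and the E2F motif GGCGGGAA in 3.47% and 5.87% (3.96% of all). The octamer ATTTGCAT, which POU5F1 binds, was in 2.09% of the higher and 0.72% of the lower (1.41% of all).

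The median ratio of observed to expected CpG was 0.762 in promoters of higher and 0.812 in those of lower genes, against 0.713 for genes not called and 0.74 for all. At an absolute log2 ratio of at least 2 the medians were 0.591 and 0.732, below that of all promoters, with a promoter in the table for 78.5% and 83.7% of the genes. These shares are descriptions without a test, and a match is not a site of binding.

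Promoters of 4 meiotic and oocyte genes are printed with the motifs in capitals because they differ in which letters they hold, and those of Stra8 and Nanos2 because they head the female and male programmes and hold none of these letters.
Stra8, GRCm38.p6 chr6:34920698-34920997, plus strand: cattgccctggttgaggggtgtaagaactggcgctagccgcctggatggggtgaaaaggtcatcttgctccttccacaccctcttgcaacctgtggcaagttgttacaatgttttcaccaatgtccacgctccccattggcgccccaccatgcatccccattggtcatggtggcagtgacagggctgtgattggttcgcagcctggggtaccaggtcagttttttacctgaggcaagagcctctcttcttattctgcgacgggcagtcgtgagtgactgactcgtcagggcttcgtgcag
Sycp3, GRCm38.p6 chr10:88459337-88459636, plus strand: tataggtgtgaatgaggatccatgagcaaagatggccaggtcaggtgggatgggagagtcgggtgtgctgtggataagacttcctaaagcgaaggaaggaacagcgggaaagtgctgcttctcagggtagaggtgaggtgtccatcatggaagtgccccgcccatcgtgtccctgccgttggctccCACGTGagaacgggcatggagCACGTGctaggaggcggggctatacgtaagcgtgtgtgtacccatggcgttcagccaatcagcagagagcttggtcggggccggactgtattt
Sycp1, GRCm38.p6 chr3:102936051-102936350, minus strand: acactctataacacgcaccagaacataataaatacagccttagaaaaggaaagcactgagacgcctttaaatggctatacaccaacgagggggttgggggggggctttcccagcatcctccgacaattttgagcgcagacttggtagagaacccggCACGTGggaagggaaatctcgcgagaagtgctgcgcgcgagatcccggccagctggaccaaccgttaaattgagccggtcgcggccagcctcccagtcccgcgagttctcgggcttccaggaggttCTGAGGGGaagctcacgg
Msh5, GRCm38.p6 chr17:35046573-35046872, minus strand: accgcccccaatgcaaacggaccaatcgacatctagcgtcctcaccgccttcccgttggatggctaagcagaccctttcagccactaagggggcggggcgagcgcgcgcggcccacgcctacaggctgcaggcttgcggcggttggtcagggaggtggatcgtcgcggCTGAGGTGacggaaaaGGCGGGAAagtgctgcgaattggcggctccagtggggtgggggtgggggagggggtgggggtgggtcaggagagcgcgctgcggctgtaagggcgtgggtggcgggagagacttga
Figla, GRCm38.p6 chr6:86016941-86017240, plus strand: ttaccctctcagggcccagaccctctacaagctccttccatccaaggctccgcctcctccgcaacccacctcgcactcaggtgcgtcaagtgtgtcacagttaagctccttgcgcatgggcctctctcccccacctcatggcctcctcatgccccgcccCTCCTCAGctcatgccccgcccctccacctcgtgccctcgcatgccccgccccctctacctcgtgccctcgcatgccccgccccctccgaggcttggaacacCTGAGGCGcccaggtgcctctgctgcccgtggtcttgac
Nanos2, GRCm38.p6 chr7:18987274-18987573, plus strand: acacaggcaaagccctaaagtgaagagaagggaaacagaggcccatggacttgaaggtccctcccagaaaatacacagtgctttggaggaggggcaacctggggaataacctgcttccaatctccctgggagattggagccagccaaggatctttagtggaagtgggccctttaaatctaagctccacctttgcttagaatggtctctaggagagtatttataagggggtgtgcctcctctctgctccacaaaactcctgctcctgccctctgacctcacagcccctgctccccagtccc

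Sycp3 held 2 E-boxes, and Sycp1 held 1 E-box and 1 CNCCTCAG match. Msh5 held a CNCCTCAG match beside an E2F match, and Figla held 2 CNCCTCAG matches. Of the 14 synaptonemal complex and cohesin promoters, 4 held CNCCTCAG and 6 the E-box, against 9.35% and 9.75% of all promoters. Each was in 2 of 20 recombination promoters, near the share of all, although 69.0% of that list had a promoter in the table, too few for a comparison. The promoter of Nanos2 held no CpG (observed to expected ratio 0), and that of Stra8 had a ratio of 0.43.

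**Figure D4:**
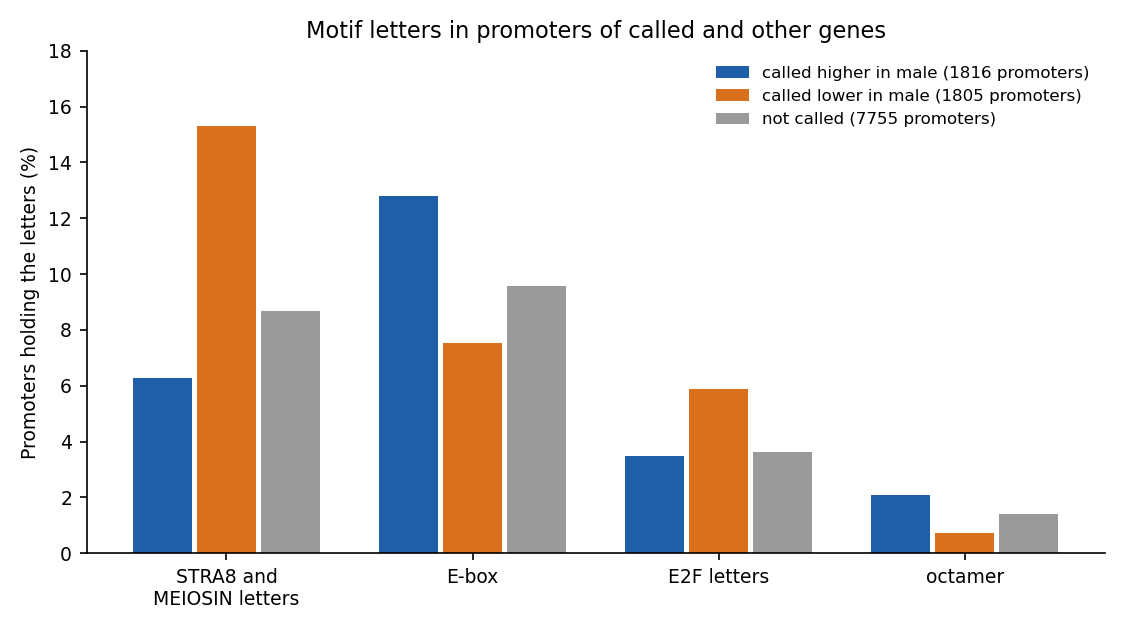
Share of promoters (y axis, percent) that hold each of 4 motifs on either strand, for genes called higher (blue) or lower (orange) in males and genes not called (grey), among protein-coding autosomal genes outside chromosome 18. The STRA8 and MEIOSIN letters were in 15.3% of promoters of genes lower in males, against 6.28% of those higher and 8.69% of those not called.

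Cell cycle genes differed in both directions. Of 25 G1 regulators tested, 4 were higher and 6 lower (40.0% called against 28.7% of all autosomal genes; 3 lower without female replicate 1), with a median of 0.16. Cdkn1b, which encodes the CDK inhibitor p27, was at 31.1 and 42.3 CPM in males and 6.34 and 7.63 CPM in females (log2 2.40, SE 0.40, adjusted p = 0.000315). The G1 kinases were higher too. Cdk4 was at 570.5 and 532 CPM in males and 95.9 and 119 CPM in females (log2 2.36, SE 0.15, adjusted p = 1.38e-07), and Cdk6 at 59.8 and 65.9 against 4.48 and 5.83 CPM (log2 3.62, adjusted p = 2.98e-05). Ccne2 and Ccnd1 were lower. Ccne2, the cyclin of S phase entry, was at 28.1 and 11.7 CPM in males and 519.9 and 376 CPM in females (log2 -4.50, SE 0.45, adjusted p = 3.47e-06), and Ccnd1, a partner of CDK4 and CDK6, at 3.68 and 4.0 against 33.4 and 29.8 CPM (log2 -3.04, adjusted p = 0.00109). Cdkn2b (6.24 and 5.11 against 1.86 and 0.636 CPM, adjusted p = 0.235) and Ccnd3 (25.8 and 21.6 against 15.3 and 17.7 CPM, adjusted p = 0.132) were not called.

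Of 44 DNA replication genes tested, 19 were lower and 6 higher in males (3 higher without female replicate 1), with a median of -0.55. The higher count is near the 14.6% of all autosomal genes called higher, and 14.1% of all were called lower. The origin recognition subunit Orc1 was at 51.2 and 52.4 CPM in males and 219.6 and 212 CPM in females (log2 -2.06, SE 0.27, adjusted p = 3.98e-05). Gins2 and Gins3, subunits of the replicative helicase, were at 5.47 and 5.07 against 29.1 and 33.7 CPM (adjusted p = 2.53e-05) and at 14.6 and 13.5 against 86.3 and 68.4 CPM (adjusted p = 2.98e-05), and the thymidine kinase Tk1 at 26.2 and 10.51 against 104 and 107 CPM (adjusted p = 2.25e-05). Of 37 mitotic genes tested, 9 were higher (4 without female replicate 1) and 7 lower, against 14.6% and 14.1% of all autosomal genes, with a median of 0.26. Cyclin B1 (Ccnb1) was at 1032 and 629 CPM in males and 134 and 284 CPM in females (log2 1.99, SE 0.30, adjusted p = 0.000144), Aurora kinase B (Aurkb) at 81.6 and 50.2 against 12.48 and 21.8 CPM (adjusted p = 7.72e-05), and Mybl2, an activator of mitotic genes, at 119 and 102 against 31.1 and 31.2 CPM (adjusted p = 1.18e-05). The cytokinesis motor Kif23 went the other way at 88.1 and 68.7 CPM in males and 391 and 298 CPM in females (log2 -2.14, adjusted p = 1.02e-06). The proliferation marker Mki67 was at 123 and 52.9 CPM in males and 176 and 144 CPM in females, which missed the threshold (log2 -0.87, SE 0.33, adjusted p = 0.0597). Message levels of cyclins and kinases do not give the phase of the cells.

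Several targets of BMP signalling were lower in males. Of 21 BMP and WNT response genes tested, 9 were lower (5 without female replicate 1) and 2 higher (0 without male replicate 2, female replicate 1 or female replicate 2), against 14.1% and 14.6% of all autosomal genes, and the median was -0.99. Id1, an inhibitor of differentiation switched on directly by BMP, was at 3.86 and 3.64 CPM in males and 186 and 178 CPM in females (log2 -5.60, SE 0.49, adjusted p = 1.26e-06). Id2 was at 12.2 and 6.83 CPM in males and 144 and 127 CPM in females (log2 -3.84, SE 0.42, adjusted p = 8.89e-06), and Id3 at 96.7 and 63.4 against 906 and 765 CPM (log2 -3.39, SE 0.32, adjusted p = 2.36e-06). The transcription factor Gata2 was at 1.84 and 2.32 CPM in males and 85.8 and 94.8 CPM in females (log2 -5.42, SE 0.48, adjusted p = 1.32e-06). The sexes did not overlap for any of these genes, and 34.9% of all autosomal genes likewise had both male libraries below both female libraries. Retinoic acid genes gave 3 higher and 3 lower of 16, near the 14.6% and 14.1% of all autosomal genes, with a median of 0.76. The lower ones included the binding protein Crabp1 (1.54 and 9.39 against 30.2 and 19.2 CPM, adjusted p = 0.0103, and 0.0823 without female replicate 1) and the receptor Rarb, itself a target (0 and 1.08 against 6.39 and 4.56 CPM, adjusted p = 0.0171, and 0.0731 without male replicate 1 and 0.0797 without female replicate 1). Among the higher, the synthesis enzyme Aldh1a1 stood at 13.7 and 8.47 CPM in males and 0 and 0.742 CPM in females (log2 5.13, adjusted p = 0.0021). Sertoli cells also make this enzyme, and their marker sum was 77.1 and 72.0 against 13.4 and 6.15 CPM. The part of such cells in its level was not tested. The higher count was 1 without male replicate 2 or female replicate 2, and the lower count 1 without female replicate 1.

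Of 23 glycolytic genes tested, 12 were higher (9 to 11 with 1 library left out) and 2 lower in males, against 14.6% and 14.1% of all autosomal genes, with a median of 1.04. The enzymes Eno1 and Pgam1, which act in succession, were at 979 and 953 CPM in males and 109 and 178 CPM in females (log2 2.76, SE 0.22, adjusted p = 6.19e-07), and at 179.7 and 141 against 20.2 and 26.5 CPM (log2 2.79, SE 0.21, adjusted p = 4.7e-07). Pkm, the last enzyme of the pathway, was at 2752 and 2657 CPM in males and 737 and 973 CPM in females (log2 1.66, adjusted p = 1.8e-05). Pdk1, which holds pyruvate back from the mitochondrion, was at 52.3 and 40.3 against 9.51 and 9.43 CPM (log2 2.29, adjusted p = 5.5e-06). Each of these was above both female libraries in both male libraries, as were 32.5% of all autosomal genes.

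Apoptosis genes gave 6 higher and 3 lower of 22 (lower count 0 without male replicate 2 and 1 without any other library), with a median of 0.33. The lower count is near the 14.1% of all autosomal genes called lower, and 14.6% of all were called higher. Pmaip1, the p53 target NOXA, was at 369.8 and 392 CPM in males and 0 and 1.17 CPM in females (log2 9.84, SE 1.27, adjusted p = 4.85e-05). Trp53 itself was at 406 and 228 CPM in males and 42.9 and 93.4 CPM in females (log2 2.23, SE 0.31, adjusted p = 7.02e-05), the effector Bax at 229 and 155 against 69.3 and 70.9 CPM (adjusted p = 6.33e-05), and Casp9, the caspase of the mitochondrial route, at 28.1 and 37.7 against 11.2 and 10.49 CPM (adjusted p = 0.00205). Imprinted genes gave 6 higher (3 without male replicate 2 or female replicate 1) and 5 lower of 33, a share of 33.3% near that of all genes, with a median of -0.37. Phlda2, expressed from the maternal copy in somatic cells, was at 0 and 1.44 CPM in males and 64.4 and 138 CPM in females (log2 -6.94, SE 0.68, adjusted p = 3.05e-06). Igf2 was at 2.20 and 2.72 CPM in males and 33.5 and 30.1 CPM in females (log2 -3.68, adjusted p = 3.7e-05) and its clearance receptor Igf2r at 45.3 and 43.0 against 95.9 and 106 CPM (log2 -1.19, adjusted p = 0.000112), while Mest was higher at 71.2 and 38.2 against 4.53 and 9.12 CPM (log2 3.05, adjusted p = 0.00012).

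Among the largest differences of any gene, Hesx1, a homeobox repressor of the early embryo, had 221 and 182 CPM in males and no count in females, at least 859-fold higher with 3 counts per female library (adjusted p = 7.24e-07). Myof (10.2 and 74.5 CPM), Krt42 (25.4 and 36.0 CPM), Zscan5b (19.1 and 21.2 CPM) and Vwa2 (21.2 and 11.6 CPM) were likewise without a count in females, and Vwa2 was no longer called without female replicate 1 (adjusted p = 0.0521). In the other direction, Pparg, the nuclear receptor of fat cells, had no count in males and 51.1 and 42.5 CPM in females, at least 314-fold lower in males with 3 counts per male library (adjusted p = 0.00171). The MHC class II gene H2-Ab1 also had no count in males, against 39.2 and 31.8 CPM in females (at least 238-fold lower, adjusted p = 0.000546). Tchh (11.1 and 13.1 CPM in females), Tgm1 (12.9 and 9.75 CPM) and Prox1 (7.30 and 9.65 CPM) were at 0 in males, and Tchh and Prox1 were no longer called without male replicate 1 (0.0611 and 0.0849) or 2 (0.075 and 0.103). The Sertoli cell marker Cst9 was among the largest rises too, with 34.5 and 25.7 CPM in males and no count in females (at least 128-fold higher, adjusted p = 2.59e-05). Other Sertoli markers were low: Sox9 was at 3.92 and 3.60 against 0.101 and 0 CPM (adjusted p = 0.000153) and Amh at 1.31 and 1.84 against 0 and 0 CPM (adjusted p = 0.0225, lost without male replicate 2 at 0.0569, female replicate 1 at 0.143 or female replicate 2 at 0.0867). Of 14 Sertoli markers tested 6 were higher, against 14.6% of all autosomal genes. With 1 library left out fewer were called, down to near the share of all genes. Of the immediate early and stress genes, 5 of 16 were higher (1 without male replicate 2, and 2 without female replicate 1 or 2) and 1 lower (2 without male replicate 2), against 14.6% and 14.1% of all autosomal genes, with Ier3 at 23.5 and 30.1 against 1.66 and 1.70 CPM (adjusted p = 0.00035) and Fos at 2.26 and 2.48 against 17.6 and 18.8 CPM (adjusted p = 0.00338).

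Few genes were called between the sexes at E12.5. At that stage 77 autosomal genes were called between Tet1-WT males and females (0.48%), 38 higher and 39 lower, and of these 59 were called in the same direction at E14.5 and 1 in the opposite. The E14.5 difference minus the E12.5 difference was itself called for 1998 autosomal genes (12.4%), 1039 in the positive and 959 in the negative direction (1387 and 741 with upper-quartile scaling), and for 926 without female replicate 1. Of the 4610 genes called at E14.5, 1861 passed this test. Mesenchyme markers summed to 2426 and 1588 CPM in E12.5 males and 1146 and 1408 CPM in E12.5 females, against 79.0 to 119 CPM at E14.5, and their part in the difference between stages was not tested. Immediate early and stress genes summed to 680.8 and 364.7 CPM in E12.5 males and 198.2 and 194.2 CPM in E12.5 females. At E14.5 they summed to 88.0 and 136.6 CPM in males and 51.95 and 50.56 CPM in females, and their part was not tested either. Dppa3 had 2263 and 2421 CPM in E12.5 males and 2363 and 3543 CPM in E12.5 females, and Dppa4 had 291 and 359 against 333 and 353 CPM, so the sexes overlapped at E12.5 for both genes. The sex difference was larger at E14.5 (difference in log2 ratio 3.49, adjusted p = 7.08e-05, and 3.80, adjusted p = 4.78e-05). Meiosin was at 2.66 and 1.5 CPM in E12.5 males and 2.42 and 2.05 CPM in E12.5 females (difference in log2 ratio -6.71, SE 0.82, adjusted p = 0.000211). Ccne2 was even at 43.1 and 47.8 against 45.4 and 45.2 CPM (difference -4.50, SE 0.57, adjusted p = 0.000211). Some genes already differed at E12.5. Stra8 was at 0.726 and 0 CPM in males and 31.3 and 6.94 CPM in females (log2 -5.67, SE 0.89, adjusted p = 0.00856), Lefty2 at 166 and 187 against 4.36 and 1.42 CPM (log2 5.95, SE 0.87, adjusted p = 0.0047), and Phlda2 at 5.99 and 5.70 against 249.8 and 431 CPM (log2 -5.86, SE 0.60, adjusted p = 0.000232). For these 3 the difference between stages was not called (adjusted p = 0.189, 0.325 and 0.456). Of the pluripotency list 18 of 27 members passed the test between stages in the positive direction, against 6.47% of all autosomal genes, and of the synaptonemal complex list 8 of 14 in the negative direction, against 5.97%.

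**Figure D5:**
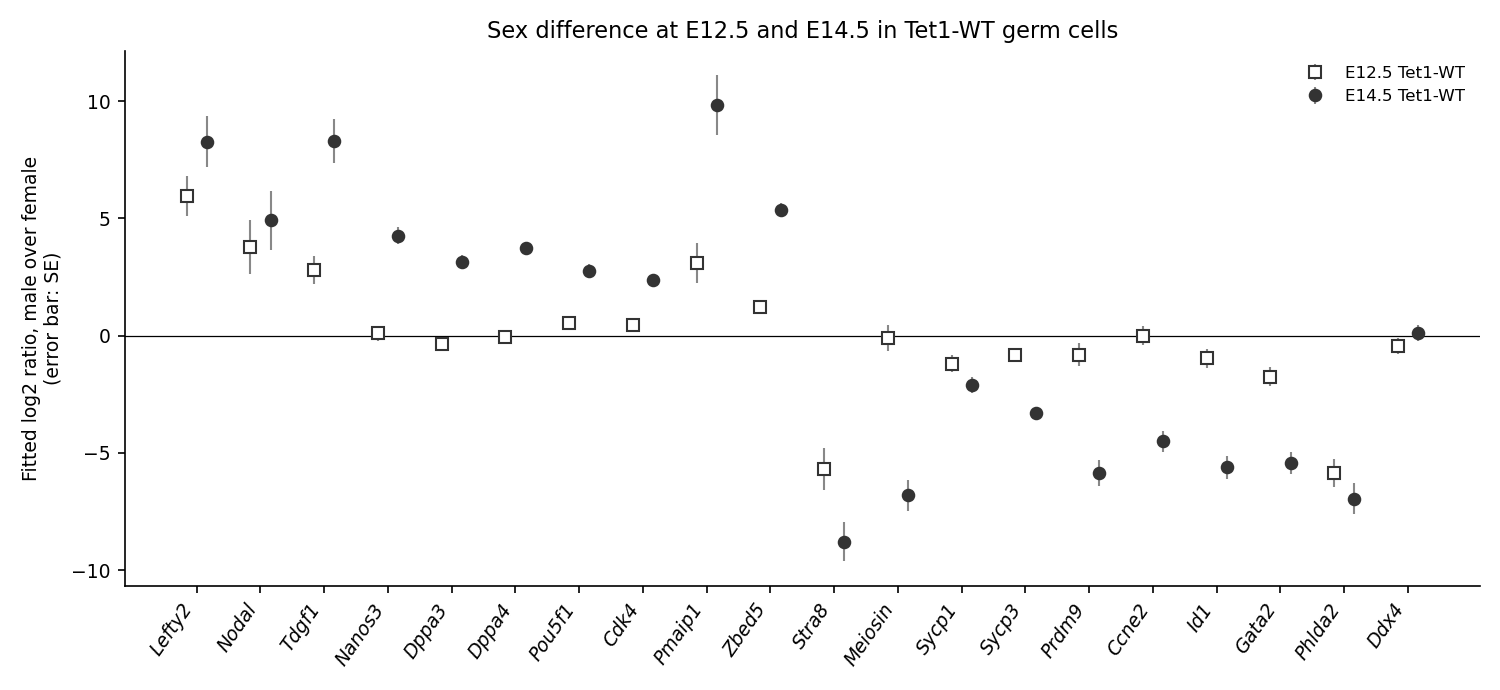
Fitted log2 ratio, male over female, at E12.5 (open squares) and E14.5 (filled circles) in Tet1-WT libraries for 20 genes, with SE as error bars. Dppa3, Dppa4, Ccne2 and Meiosin lie near 0 at E12.5 and far from it at E14.5, while Lefty2, Stra8 and Phlda2 are far from 0 at both stages.

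Tet1-KO libraries of E14.5 let the sex difference be compared between genotypes. Tet1 itself stood at 99.5 and 79.9 CPM in E14.5 Tet1-KO males and 21 and 25.8 CPM in Tet1-KO females, against 218 and 155 CPM in WT males and 35.2 and 49.2 CPM in WT females. The part of the gene that was targeted was not given in the sources used here, so remaining reads do not test the labels. Between Tet1-KO males and females 3121 autosomal genes were called (19.4%), 1957 higher (12.2%) and 1164 lower (7.25%). The KO difference minus the WT difference was called for 234 genes (1.46%), 159 in the positive (0.99%) and 75 in the negative direction (0.467%; 95 and 136 with upper-quartile scaling). The median of all autosomal genes was 0.108, and -0.027 with upper-quartile scaling. Of the 4610 genes called in WT, 198 passed this test. Sertoli cell markers summed to 180.1 and 130.7 CPM in KO males and 11.8 and 7.33 CPM in KO females, and their part in this difference was not tested. The count of 234 was 92 without WT male replicate 1 and 13 without WT female replicate 1. Hspa5 and Pdia4, chaperones of the endoplasmic reticulum, were among the genes with the smallest p. Hspa5 was at 1318 and 1353 CPM in KO males and 1045 and 988 CPM in KO females, against 1151 and 991 CPM in WT males and 2134 and 2155 CPM in WT females (difference in log2 ratio 1.40, SE 0.16, adjusted p = 0.00156). Pdia4 was at 561 and 615 CPM in KO males and 458 and 449 CPM in KO females, against 383 and 393 CPM in WT males and 814 and 798 CPM in WT females (difference 1.43, SE 0.20, adjusted p = 0.00647). The WT female libraries stood apart from the other 3 groups for both chaperones. Zbed5 was at 72.6 and 81.7 CPM in KO males and 11.5 and 16.6 CPM in KO females, against 126 and 138 CPM in WT males and 2.32 and 4.45 CPM in WT females (difference -2.88, SE 0.37, adjusted p = 0.00545). The sex difference was also smaller in KO for Haus8, a subunit of the spindle complex augmin (difference 1.71, adjusted p = 0.00647), and Pdlim5 (difference 2.20, adjusted p = 0.00863). Prom1 had a larger one, at 0 and 0 CPM in KO males and 41.1 and 39.4 CPM in KO females, against 2.44 and 2.12 CPM in WT males and 30.8 and 17.5 CPM in WT females (adjusted p = 0.00156). In KO males and females Sycp3 was at 74.7 and 72.4 against 492 and 293 CPM, Stra8 at 1.42 and 2.73 against 427 and 346 CPM and Dppa3 at 6320.2 and 6231 against 1581 and 1726 CPM, and for these genes the difference between genotypes was not called (adjusted p = 0.181, 0.619 and 0.104). Of 27 pluripotency members, 4 passed the test between genotypes in the negative and 0 in the positive direction, against 0.467% and 0.99% of all. Of 29 recombination genes 2, and of 14 synaptonemal complex and cohesin genes 1, passed it in the positive direction. Median log2 ratios in WT and KO were 1.63 and 1.09, -2.53 and -1.79, and -2.61 and -1.95 for these lists in turn.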

How the data were processed

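Sorted PGCs of the Tet1 cross were profiled by polyA RNA-seq, and the deposited table holds whole-number gene counts that the authors made per library. Per the submitters' processing notes, Trimmomatic, TopHat2 2.0.2, Bowtie 0.12.8 and HTSeq 0.5.3p9 were used with build mm9; whether counting used strand is not given in the sources used here, so overlapping and antisense genes are uncertain. PCR duplicates cannot be recognised in counts, and bounds cover counting error only.

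Counts were tested with edgeR 4.0.16 (R 4.3.3): filterByExpr with a minimum count of 10 and total of 15, TMM scaling, and the quasi-likelihood test in one fit over all groups of the cross, with Benjamini-Hochberg adjustment over 17567 genes (16058 autosomal) and a threshold of 0.05. The prior count was 0.125, the common biological coefficient of variation 0.46 and the residual degrees of freedom 10. A gene with no count in either library of a sex is given a fold bound from 3 counts per library. DESeq2 1.42.0 and limma 3.58.1 (voom) were alternatives, as were other scalings, no filter, fewer libraries, a 1.5-fold test and leaving out each library. The fit was tested on simulated data. Replicates are pools, so p-values measure the spread between pools. Every table column used was matched to a sample or group, with 0 left unmatched; the Tet1-KO columns carry no replicate number. Gene types and chromosomes came from a later GENCODE build matched by gene identifier, and promoters from RefSeq GRCm38.p6. Of 37991 genes in the deposited counts, 5072 had no placed chromosome there and are not among the autosomal genes. Named genes were a fixed set, the largest called changes, up to 4 called members of each list by p and up to 6 of each difference test; Ccnd1 was named after its values were seen, and some genes that the rule or the lists hold are not reported here. The members and lists were chosen with earlier results of these data known. Figures were drawn with matplotlib 3.10.9.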

Additional observations from a re-analysis of the deposited data

Results flagged for a closer look

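Of the 110 genes named, 77 had a sex difference at E14.5 that differed from that at E12.5. This rests on the test of the difference itself (edgeR, adjusted p under 0.05), which 12.4% of all autosomal genes passed. Genes were named partly by this test and partly by their E14.5 values, so the count is set in part by that choice. Values are differences in log2 ratio, E14.5 minus E12.5, and those of genes with no count in a group depend on the prior count. Positive values were found for Tdgf1 (5.48), Otx2 (6.64), Nanos3 (4.16), Dnd1 (3.09), Cnot2 (0.95), Ooep (2.61), Pou5f1 (2.22), Sox2 (1.67), Nanog (3.42), Dppa3 (3.49), Dppa4 (3.80), Tcl1 (3.10), Utf1 (3.06) and Dppa5a (1.68). Further ones were Cdkn1b (2.63), Cdk4 (1.91), Cdk6 (3.83), Mybl2 (1.63), Aurkb (1.45), Ccnb1 (2.13), Morc1 (4.41), Tdrd5 (3.19), Dnmt3l (17.04), Dnmt3a (2.22), Tet1 (1.88), E2f6 (2.49), Pgam1 (2.63) and Eno1 (2.43). Others were Pdk1 (1.6), Pkm (1.07), Pmaip1 (6.74), Bax (1.25), Trp53 (1.86), Hesx1 (11.40), Myof (10.60), Zscan5b (9.42), Sox9 (4.10), Ier3 (2.73) and Zbed5 (4.11). Negative values were found for Gm4969 (-6.71), Meioc (-4.86), Msx1 (-3.49), Sycp3 (-2.49), Smc1b (-2.32), Syce1 (-1.55), Prdm9 (-5.03), Terb1 (-4.17), Brca2 (-2.17), Msh5 (-3.02), Majin (-10.85), Dmc1 (-3.57), Spdya (-7.71) and Ccne2 (-4.50). Further ones were Tk1 (-2.38), Gins2 (-2.75), Gins3 (-2.59), Orc1 (-2.26), Kif23 (-1.64), Tex15 (-2.25), Gpat2 (-1.51), Ezh2 (-1.06), Setdb1 (-1.33), Id1 (-4.63), Id2 (-3.45), Id3 (-3.06) and Gata2 (-3.68). Others were Crabp1 (-2.63), Igf2 (-4.58), Pparg (-10.73), Tgm1 (-15.34), Prox1 (-12.43), Fos (-4.77), Haus8 (-2.83), Pdlim5 (-3.81), Hspa5 (-1.41), Pdia4 (-1.05) and Prom1 (-1.95). Mesenchyme markers summed to 2426 and 1588 CPM in E12.5 males and 1146 and 1408 CPM in E12.5 females, and their part in these values was not tested. Immediate early and stress genes summed to 680.8 and 364.7 CPM in E12.5 males and 198.2 and 194.2 CPM in E12.5 females. Their part was not tested either.

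The sex difference at E14.5 differed between Tet1-KO and Tet1-WT, in log2 ratio KO minus WT, for Nanos3 (-2.17), Msh5 (2.97), Utf1 (-2.08), Cdk4 (-1.01), Kif23 (1.14), Pgam1 (-1.78), Pdk1 (-1.74), Haus8 (1.71), Pdlim5 (2.20), Zbed5 (-2.88), Hspa5 (1.40), Pdia4 (1.43) and Prom1 (-9.02). Prom1 had no count in either KO male library, so its value depends on the prior count and is no bound. With WT female replicate 1 left out, 13 genes in all passed that test.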

How the results depend on the processing

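The count of 4610 autosomal genes called at E14.5 was 2638 to 3534 with 1 library left out and 2845 when tested against a 1.5-fold difference; under the other alternatives run it was within 1.5 times (DESeq2 5518, voom 5560, no filter 5064, upper-quartile scaling 4644). Same-numbered libraries did not deviate together over the autosomal genes (correlations of -0.02, 0.005, -0.024 and 0.016). The labels do not say whether libraries with the same number were prepared together, and these correlations cannot decide it. With the replicate block in the 12 numbered libraries 3548 genes were called, against 3734 in those libraries without it. The difference between stages was called for 1080 genes with the replicate block, 1200 in the same 12 libraries without it, and 926 to 1663 with 1 library left out. The difference between genotypes was called for 811 genes without a filter, 1044 by DESeq2 and 13 to 238 with 1 library left out, and its blocked fit was not possible because the KO columns carry no number. Of 496 list members tested 234 were called, 156 to 197 with 1 library left out. Of 127 genes named by the rule 121 were called, 103 to 111 with 1 library left out. The share of promoters of genes lower in males with CNCCTCAG was 17.3% at an absolute log2 ratio of at least 2, against 15.3%. No gene named in the text reversed its direction under any alternative run, and 91 of the 104 called ones were called without any 1 of the 4 libraries. Of all 4610 called autosomal genes, 2181 kept their call and direction without any 1 of the 4 libraries. DESeq2 did not call Nanos2 (adjusted p = 0.156), Spocd1 (0.185), Dnmt3l (0.222), Tgm1 (0.223) or Amh (0.0722), and voom did not call Fos (0.109). In the 4 libraries alone Sox2 (0.0756), Crabp1 (0.0731) and Rarb (0.111) were not called, and against a 1.5-fold difference Sox2 (0.202) and Sohlh2 (0.0942) were not. With the replicate block Sohlh2 (0.0696), Sox2 (0.11), Prox1 (0.0627) and Amh (0.0889) were not called, and without it in the same 12 libraries Sohlh2 (0.054), Sox2 (0.0972) and Amh (0.0511) were not. Voom called Dazl (0.0102) and Spo11 (0.0326), and DESeq2 called Mki67 (0.0238), which edgeR did not. The causes were not tested.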
